A study of Oryza longistaminata with 15 samples.

Results

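Rhizome internodes (RI) and shoot internodes (SI) were each measured on 3 arrays, and these 6 arrays did not fall apart by tissue alone. They were described here as 2 sets that cross the tissue labels. Set A holds RI replicates 1 and 3 with SI replicate 1, and set B holds RI replicate 2 with SI replicates 2 and 3, so the sets took 6 of the 15 arrays of the series. The sets were chosen by the correlations of log2 signal among the arrays and by no label, so every difference between set A and set B below is a description without a test.

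The plant was Oryza longistaminata, a wild rice with long, strong rhizomes, of wild type genotype and at the active tillering stage. Total RNA from RI, SI, rhizome tips (RT), shoot tips (ST) and young leaves (YL) was hybridized to the Affymetrix rice array, with 3 arrays per tissue and 5 µg of total RNA per labelling. RT was the distal end of young rhizomes, ST was the end of a tiller stripped of its leaves, and no position along the stem or age was given for any internode sample. The study's methods state that the accession was kept as a single plant, whereas the sample records speak of individual plants, so the replicates may be parts of 1 clone and the tests measure the spread between these samples.

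An internode of a grass grows from a zone of dividing cells at its base. Cells pushed out of that zone lengthen while their primary walls are loosened by expansins and xyloglucan endotransglucosylases and filled by water that enters through aquaporins. Once lengthening ends, vascular and fibre cells lay down secondary walls of cellulose, xylan and lignin, and in many grasses the ground tissue stores starch. The question asked of the 2 sets was whether they differ as lengthening and mature internodes would in such genes.

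A probe set is the group of probes for 1 transcript, and its value is a signal intensity on a linear scale. A probe set was tested where its signal was above 49.6, the 95th percentile of 64 reporter control probe sets, on at least 3 of the 15 arrays, which left 23440 of 57194 rice probe sets. Differences are on the log2 scale with signals below 1 set to 1, so 1 unit is 2-fold. The 15 arrays had medians of 21.9 to 23.6 and 17943 to 18834 probe sets above the cutoff. RT replicate 2 stood apart in RNA quality, with 3 prime over 5 prime ratios of 18.8 for actin and 17.4 for GAPDH, whereas the 6 internode arrays had ratios of 2.08 to 3.03 and 1.83 to 2.14.

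The grouping held only in part. Over the 10935 probe sets above the cutoff on all 15 arrays, average linkage clustering into 2 groups returned set A and set B. Over all 23440 tested probe sets it placed RI 3 with set B and left RI 1 and SI 1 together. RI 3 correlated with RI 2 of set B (r = 0.927) as closely as with RI 1 of its own set (r = 0.924), and less with SI 1 (r = 0.818). These correlations are across probe sets, which are not independent replicates, so they carry no p. SI 2 and SI 3 were the closest pair at r = 0.960, and SI 1 correlated with them at 0.755 and 0.772, less than RI 2 did at 0.905 and 0.914.

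The first principal component of the 6 arrays took 54.7% of the variance and ran from SI 1 (score 130) and RI 1 (86.9) through RI 3 (-2.26) to RI 2 (-67.5), SI 3 (-70.4) and SI 2 (-77.1). RI 3 therefore lay between the 2 sets on this axis. The second component took 23.4% and separated all RI arrays (-61.9 to -37.9) from all SI arrays (42.2 to 69.7).

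**Figure D1:**
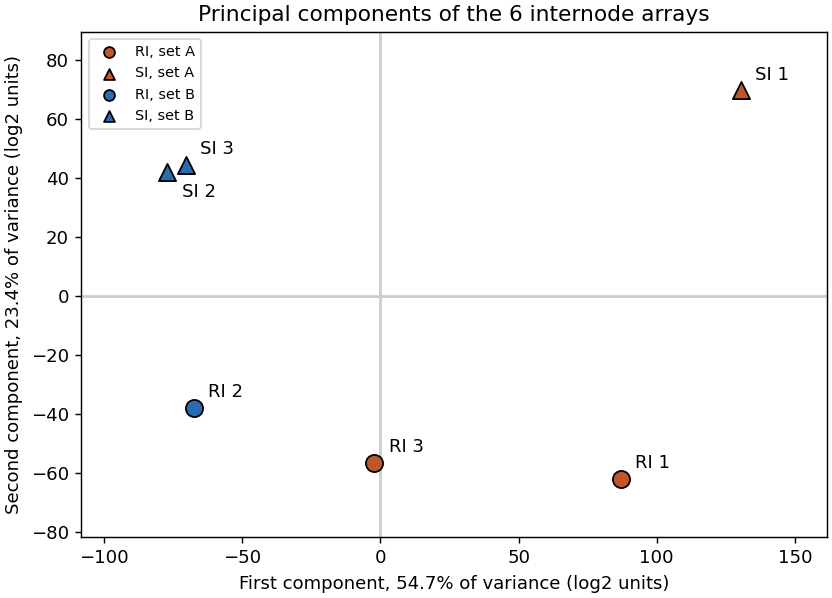
Scores of the 6 internode arrays on the first (horizontal) and second (vertical) principal components of log2 signal over the 23440 tested probe sets; circles are RI, triangles are SI, orange is set A and blue is set B. SI 1 and RI 1 lie at 130 and 86.9 on the first component, RI 3 at -2.26 and the set B arrays between -77.1 and -67.5.

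RI 3 was intermediate for single probe sets as well. For 7033 probe sets RI 1 and RI 2 were over 2-fold apart, and RI 3 lay between them in 91.6%. Placed on the linear scale with RI 2 at 0 and RI 1 at 1, RI 3 had a median position of 0.58 with quartiles of 0.44 and 0.70. Every other replicate of the 15 lay between its 2 partners less often, in 15.7% to 78.5% of the probe sets where those partners were over 2-fold apart. The cause was not tested. This pattern was chosen for report after its values were seen.

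**Figure D2:**
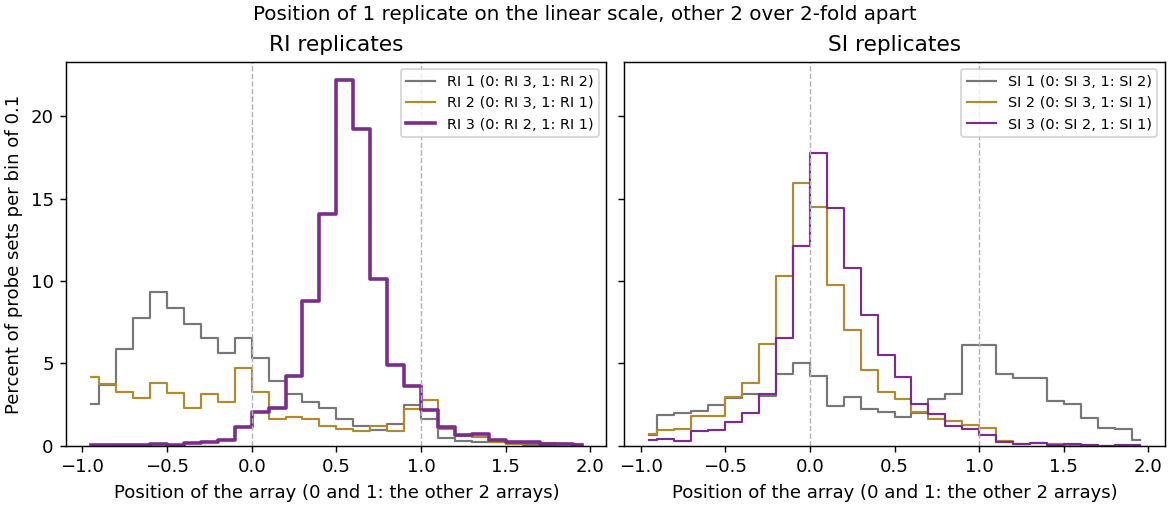
Distribution of the position of 1 replicate relative to the other 2 of its tissue (horizontal, linear scale, 0 and 1 being the other arrays named in the legend) as the percent of probe sets per bin (vertical), for RI on the left and SI on the right, over probe sets where those other 2 arrays were over 2-fold apart. RI 3 forms a single peak around its median of 0.58, while SI 2 and SI 3 lie near 0, next to each other.

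Of the 23440 probe sets, 8844 (37.7%) did not overlap between the sets. A further requirement of more than 2-fold between the means left 1533 higher in set A (6.54% of those tested) and 2171 higher in set B (9.26%). The differences were larger on the set B side, where 821 probe sets exceeded 4-fold and 86 exceeded 16-fold, against 253 and 12 on the set A side. RI 3 was the array of set A nearest to set B for 88.3% of the probe sets higher in set B and 70.9% of those higher in set A. Without RI 3 the count rose from 3704 to 5367, of which 2178 were higher in RI 1 and SI 1 and 3189 were higher in set B. Leaving out any array makes lack of overlap easier to meet. The count was 4535 without RI 2, 3863 without SI 1, 4049 without SI 2, 4031 without SI 3 and 3448 without RI 1.

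The set difference was also described inside each tissue. The sets were chosen by correlations among these same arrays, so likeness between the 2 tissues was part of the choice and is no independent support. The difference of RI 1 and RI 3 from RI 2 correlated with that of SI 1 from SI 2 and SI 3 at r = 0.545 across all tested probe sets, with no array shared, and 70.0% of probe sets had the same sign. The within-tissue difference had a larger SD in SI (1.39) than in RI (0.954). Of the 3704 probe sets counted, 982 of the 1533 higher in set A and 1314 of the 2171 higher in set B differed over 2-fold inside RI and inside SI alike. For all 3704 the lack of overlap had already fixed the same direction inside RI and inside SI.

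**Figure D3:**
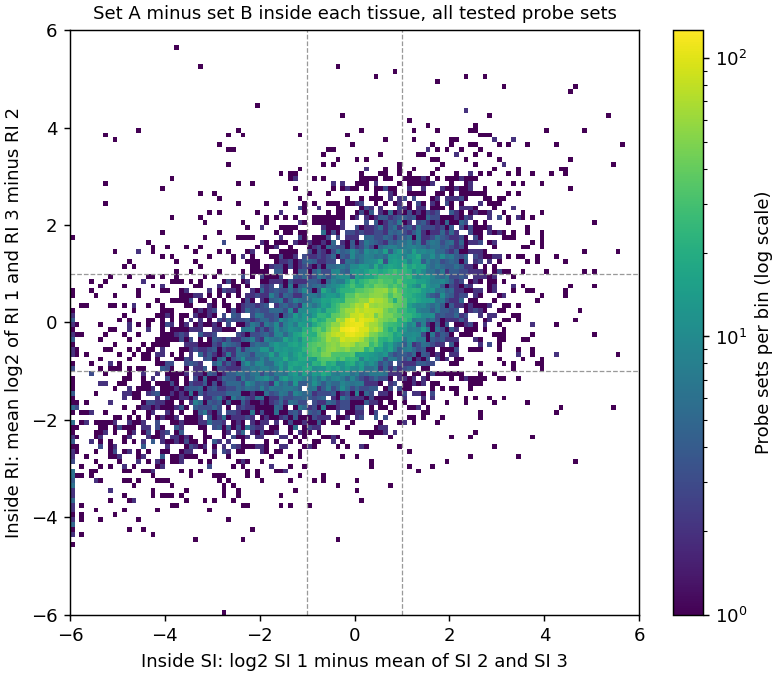
Set difference inside SI (horizontal, log2 SI 1 minus the mean of SI 2 and SI 3) against that inside RI (vertical, mean log2 of RI 1 and RI 3 minus RI 2) for 23440 probe sets, coloured by the number of probe sets per bin on a log scale, with values beyond 6 drawn at the edge and dashed lines at 2-fold. The cloud runs from lower left to upper right (r = 0.545) and is wider along the SI axis.

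Names were given to few of these probe sets. The study's own tables annotate 2965 of the tested probe sets, 307 of those higher in set A and 120 of those higher in set B, and most of that annotation belongs to genes the study had picked as higher in YL on these arrays. Among annotated probe sets 10.4% were higher in set A and 4.05% in set B, which reverses the order found among all probe sets. Of the 40 largest differences in each direction, 32 on the set B side and 37 on the set A side had no annotation.

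The 10 largest annotated differences on the set B side included several proline-rich proteins. A group of proline-rich proteins, a class often found in plant cell walls, lies at neighbouring locus numbers on chromosome 10. Os10g05990 had signals of 7.84 in RI 1, 1123 in RI 3 and 10.4 in SI 1, against 2197 in RI 2, 2272 in SI 2 and 2396 in SI 3. RI 1 and SI 1 were thus below the cutoff while RI 3 was about midway to RI 2, at a position of 0.49. Os10g05980 had 12.4, 1217 and 15.1 in set A (in the order RI 1, RI 3, SI 1) against 2471, 1862 and 2464 in set B (RI 2, SI 2, SI 3). Os10g06000 had 9.05, 876 and 7.28 against 1677, 1182 and 1062. All gave the same picture of 2 silent arrays, 1 intermediate array and 3 high arrays. Some probe sets of this group share gene symbols, so signal from near-identical copies cannot be told apart. In all, 6 of 8 tested probe sets annotated as proline-rich were higher in set B, against 4.05% of all annotated probe sets. Their median difference was -4.97 against -0.02 over all tested probe sets. This family, like the other annotation families below, was chosen after its values were seen.

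Others of these 10 were a xyloglucan endotransglucosylase and peroxidases. Os06g0696400, annotated as an enzyme that cuts and rejoins xyloglucan chains of the primary wall, had 190, 2845 and 22.9 in set A against 4449, 4159 and 4354 in set B, and a second probe set for it had 393, 1034 and 83.6 against 2263, 1937 and 2178. Peroxidase 72 (Os01g15830) had 171, 1671 and 28.9 against 3004, 3087 and 2753. Peroxidase 1 (Os05g41990) had 18.2, 387 and 106 against 1000.3, 1209 and 1861. Peroxidases of this secreted class act on hydrogen peroxide at the wall, and both genes were higher on each set B array than on each set A array, with differences of -3.86 and -3.85. They were the only ones higher in set B among 15 tested peroxidase probe sets, where 4.05% of all annotated probe sets were. Of the same 15, 1, a glutathione peroxidase (Os06g08670), was higher in set A. The Bowman-Birk inhibitor Os01g03360, of a family that blocks serine proteases, had 13.7, 218 and 10.96 against 614, 387 and 384. Os06g35970, annotated as meiosis 5, had 47.9, 1605 and 183 against 2743, 2706 and 2516. The Ser/Thr-rich protein Os09g15480 had 9.21, 110 and 5.93 against 278, 840 and 417. In all of these the set A arrays were the lower ones and RI 3 was the highest array of set A.

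GDSL lipases, a large family of secreted ester hydrolases, followed the same order. Of 11 tested, 6 were higher in set B and none in set A, with a median of -1.97. Over all annotated probe sets 4.05% were higher in set B and 10.4% in set A. Os06g06250 had 75.9, 1155 and 25.1 in set A against 1862, 1584 and 1413 in set B. Os04g42860 had 9.92, 41.9 and 7.08 against 107, 131 and 335, with every set A array below the cutoff, so set B was at least 3.37-fold higher. That lower bound sets the mean of the high arrays over the cutoff.

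On the set A side the largest annotated differences were smaller. The zinc-binding protein Os06g41930 had signals of 177, 94.3 and 455 in set A against 16.0, 18.5 and 23.4 in set B, all of the latter below the cutoff, which makes set A at least 3.96-fold higher. The C3HC4 zinc finger protein Os04g51400 had 276, 165 and 964 against 52.8, 25.6 and 33.4. The AP2 domain protein Os09g11480, of a class of DNA-binding regulators, had 2965, 2891 and 2588 against 196, 316 and 708, and its RI 3 signal was close to that of RI 1. SI 1 was the highest array for the first pair and the lowest of set A for the third.

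Aldose 1-epimerase Os03g53710, which interconverts sugar anomers, had 377, 313 and 605 in set A against 35.4, 63.5 and 77.5 in set B. The 2Fe-2S domain protein Os07g30670 had 583, 532 and 1280 against 42.8, 124 and 208. The other 5 of the 10 largest were a photosystem II reaction centre X protein (Os07g47640), a CorA-like magnesium transporter (Os01g64890), a matrixin family protease (Os10g40830), a histidine triad protein (Os12g13120) and a folate/biopterin transporter (Os03g58080), with differences of 2.44 to 2.79. None of these 10 overlapped between the sets, as the rule that named them required.

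Some annotation families lay mainly on the set A side, to be read against the 10.4% and 4.05% of all annotated probe sets that were higher in set A and in set B. Pentatricopeptide proteins, which act on organelle transcripts, had 10 of 42 probe sets higher in set A and none higher in set B (median 0.71). F-box proteins, which choose targets for protein degradation, had 9 of 21 and none (median 0.60). Zinc finger and related proteins had 9 of 36 and none (median 0.43). Other families were near or below those shares, with 7 of 99 protein kinases higher in set A and 3 in set B, 8 and 3 of 160 chloroplast-targeted proteins, and 2 and none of 46 ribosomal proteins of all compartments. Of the first 42, 21 and 36 probe sets, 35, 10 and 25 had their annotation from the study's YL table, so the families are weighted toward genes high in leaf.

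**Figure D4:**
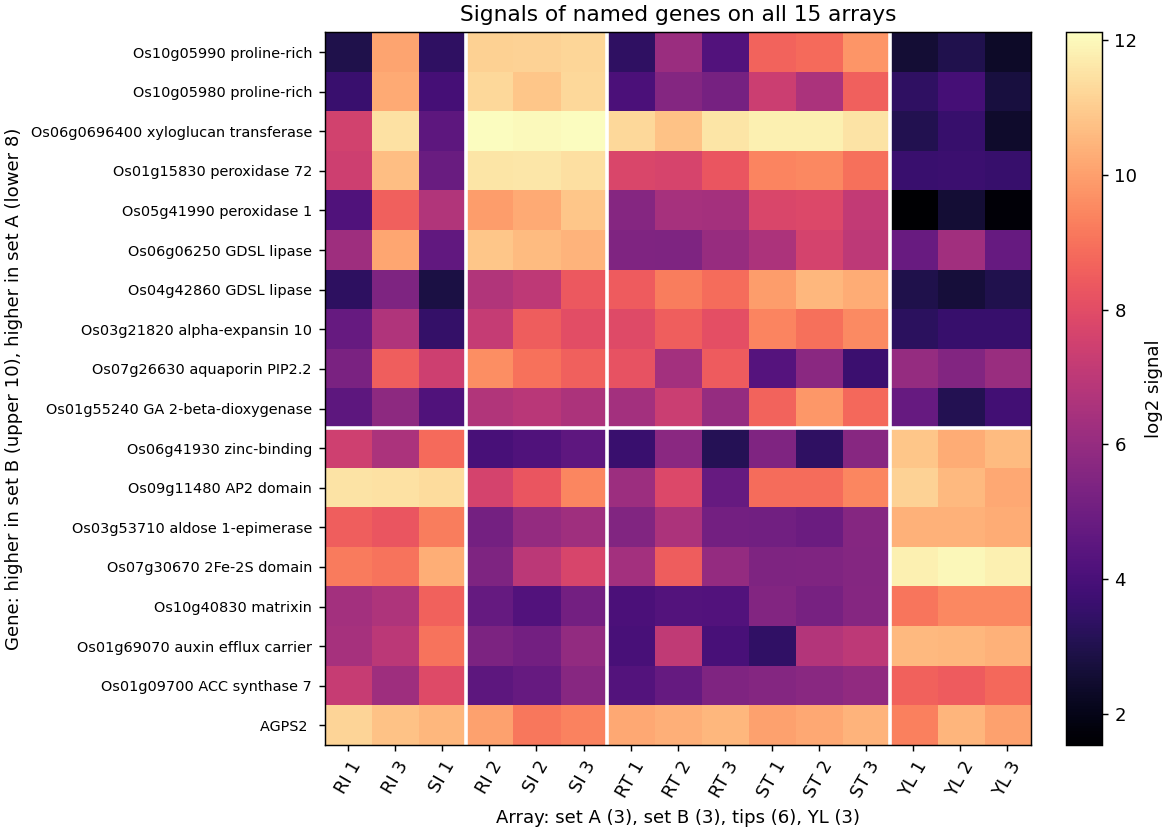
log2 signal (colour) of 18 named genes (rows, 10 higher in set B above the line and 8 higher in set A below it) on all 15 arrays (columns, set A, set B, tips and YL between the white lines). RI 1 and SI 1 are dark and RI 3 intermediate in the upper rows, and the lower rows are bright in YL and dim in most tip arrays, with AGPS2 bright throughout.

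Genes of cell lengthening were on the set B side in part. Of 6 tested probe sets for expansins and xyloglucan endotransglucosylases, 3 were higher in set B and none in set A, with a median of -1.53. Over all tested probe sets 9.26% were higher in set B, and over the annotated ones 4.05%. The 3 were both probe sets of the gene Os06g0696400 above and that of alpha-expansin 10. Alpha-expansin 10 (Os03g21820), which loosens primary walls, had 27.5, 104 and 11.3 in set A against 150, 358 and 261 in set B. Another xyloglucan endotransglucosylase/hydrolase, Os03g63760, had 415, 375 and 224 against 264, 80.8 and 140, so its values lay in the other direction and the sets overlapped.

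Of 4 aquaporin probe sets 1 was higher in set B. A count of 1 in so short a list is to be read beside the share higher in set B. That share was 4.05% of annotated and 9.26% of all tested probe sets. PIP2.2 (Os07g26630), a water channel of the plasma membrane, had 39.5, 370 and 173 against 788, 516 and 385, and its call ended under quantile normalization. Of 6 gibberellin genes 1 was higher in set B. It was Os01g55240, a gibberellin 2-beta-dioxygenase, an enzyme type that inactivates gibberellin, with 22.9, 56.8 and 18.4 against 105, 123 and 97.4. GA20OX3, named for the gibberellin 20-oxidases that make gibberellin precursors, had 786, 888 and 627 in set A against 466, 579 and 470 in set B. This difference did not overlap but was only 0.60. The gibberellin regulated protein Os06g51320 had 11.1, 179 and 10.1 against 422, 50.7 and 459, and the sets overlapped through SI 2.

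Dividing cell and meristem genes gave almost no counted probe sets. None of the 6 cell division and DNA replication probe sets met the count. An MCM3 probe set (Os05g39840), for a subunit of the helicase that opens DNA for replication, had 22.1, 27.2 and 19.6 in set A and 23.0, 87.9 and 69.5 in set B, and only SI 2 and SI 3 passed the cutoff. The KNOX homeobox gene OSH1 (Os03g51690), which keeps shoot meristem cells undetermined, had 383, 373 and 275 in set A and 306, 439 and 254 in set B, against 509 to 1012 over the 6 tips and 1.12 to 4.06 in YL. Of 10 homeobox and meristem probe sets 1, CEN-like protein 3 (Os11g05470), was counted, with every internode signal at or below 38.9 and so under the cutoff. The mean log2 signal of these 10 was nonetheless lower in set A inside each tissue. Inside RI it was 5.98 in RI 1 and 6.63 in RI 3 against 7.09 in RI 2. Inside SI it was 5.79 in SI 1 against 6.78 in SI 2 and 6.15 in SI 3. The sets overlapped in this mean, as RI 3 lay above SI 3.

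Genes of mature tissue were few on the annotated side. Cellulose synthases, lignin enzymes, tubulins, and phloem and xylem markers had no annotated probe set, so those markers were not analysed here. Xylan genes could be read by symbol for 3 probe sets, none of which met the count. Whether these 3 mark secondary walls or maturity in these tissues was not tested. IRX14, needed for the xylan backbone, had 1199, 1173 and 881 in set A and 1186, 2001 and 1886 in set B. IRX9L had 719, 620 and 608 against 406, 918 and 692. XAT2, named for xylan arabinosyltransferases, had 193, 486 and 144 against 928, 449 and 530. The sets overlapped in all 3 genes. Their mean log2 signal did not overlap, with 9.10, 9.47 and 8.73 in set A against 9.58, 9.87 and 9.79 in set B. The median difference of the 3 was 0.0002 inside RI and -1.14 inside SI.

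Of 10 starch synthesis probe sets 1 was higher in set A and none in set B, a share close to that of all annotated probe sets (10.4%), with a median difference of 0.72. Their mean log2 signal did not overlap, with 9.86, 9.84 and 9.89 in set A against 9.56, 8.59 and 9.26 in set B. AGPS2, a small subunit of the ADP-glucose pyrophosphorylase that makes the starch precursor, had 2318, 1736 and 1457 in set A against 1048, 564 and 667 in set B. The amylose-making starch synthase of the granule (Os06g04200) had 6182, 6772 and 5564 against 6091, 2006 and 4194 at its brightest probe set, and the sets overlapped through RI 2. That probe set read 39.9 to 119 over the 6 tips and 66.6 to 124 in YL, so its signal was high in every internode array of both sets. Neither of the 2 probe sets for senescence and chlorophyll breakdown was counted, and their mean log2 signal was 6.84 in RI 1 and 7.60 in RI 3 against 8.23 in RI 2, but 8.31 in SI 1 against 7.67 in SI 2 and 8.24 in SI 3, so the sets differed in opposite directions inside the 2 tissues.

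Other lists had at most 1 member counted in either direction. These counts are to be read beside the shares of all annotated probe sets, 10.4% higher in set A and 4.05% in set B. The auxin efflux carrier Os01g69070 was higher in set A (86.0, 126 and 530 against 40.7, 34.3 and 60.6), and so was the ACC synthase 7 probe set Os01g09700, for the step that commits to ethylene synthesis (74.6 to 245 against 23.0, 27.1 and 49.8, with RI 3 the lowest of set A). The cytokinin-repressed protein CR9 (Os01g01340) had 1156, 1209 and 4359 in set A against 252, 412 and 895 in set B. Os06g05060, annotated as early flowering 3 of the circadian clock, had 240, 161 and 261 against 78.4, 126 and 118. On the set B side, a lipid transfer protein (Os01g0914300) had 35.7, 199 and 32.3 against 565, 239 and 258. Heat shock proteins had 1 of 10 higher in set B (median -0.62), the heat shock protein Os08g15230 with 60.6, 98.1 and 95.5 against 170, 190 and 153, and that call ended under quantile normalization. The Hsp20 family member Os02g52150 had 35.1, 1397 and 76.4 against 2754, 489 and 404 with overlap.

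Whether set B was lengthening and set A mature, or the reverse, could be read from few genes. The wall-loosening genes counted, alpha-expansin 10 and Os06g0696400, were higher in set B. They hold 3 of the 6 probe sets of that list, and the other 3 were not counted. The values of Os03g63760 lay in the other direction, with overlap. For starch synthesis 1 probe set of 10 was higher in set A, close to the share of all annotated probe sets. The mean of these 10 was higher on each set A array than on each set B array. The cell division and xylan genes gave no call, though the mean of the 3 xylan probe sets was higher on each set B array. No label gives the position or age of the internode samples. Replicate number also goes in part with the sets, as both number 1 arrays lie in set A and both number 2 arrays in set B. Stage, position, time of sampling, replicate number and the share of each cell type cannot be told apart in these arrays. Neither can fewer cells of a type and less RNA per cell.

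The tip and YL arrays were not used to form the sets, and on them the 2 groups of probe sets went opposite ways. limma found 5206 probe sets higher in the tips (22.2% of those tested) and 5147 higher in YL (22.0%), called where they differed more than 2-fold with an adjusted p under 0.05. Of the 2171 probe sets higher in set B, 1155 (53.2%) were higher in the tips and 101 (4.65%) higher in YL, with a median tips minus YL difference of 1.83 against 0.06 over all tested. Of the 1533 higher in set A, 110 (7.18%) were higher in the tips and 769 (50.2%) higher in YL, with a median of -1.29. Without RT 2 the shares were 53.5% and 4.21% for set B and 6.30% and 51.6% for set A. To be tested a probe set had to be above the cutoff somewhere, and 57 and 35 of these probe sets were above it on no tip or YL array.

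**Figure D5:**
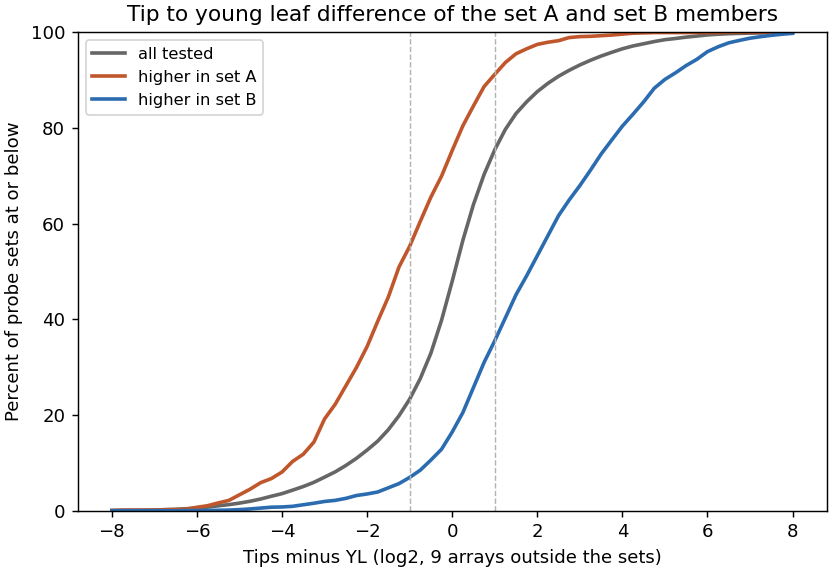
Cumulative percent of probe sets (vertical) at or below a given tips minus YL difference (horizontal, log2, from 6 tip and 3 YL arrays outside the sets) for all tested probe sets, those higher in set A and those higher in set B, with dashed lines at 2-fold. The medians were 0.06, -1.29 and 1.83.

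Single genes followed this with exceptions. The xyloglucan endotransglucosylase Os06g0696400 had signals of 1741 to 3612 (median 2987) over the 6 tips and 5.32 to 11.8 in YL, a difference of 8.45 ± 1.44 (SE, limma adjusted p = 0.000276). Alpha-expansin 10 had 241 to 743 (median 437) in the tips and 9.67 to 11.9 in YL, a difference of 5.27 ± 0.88 (adjusted p = 0.000242). Peroxidase 72 had 202 to 722 against 12.04 to 12.6, a difference of 4.98 ± 1.27 (adjusted p = 0.00466). YL was below the cutoff for these 3 genes, so as bounds the tips were at least 56.8-fold, 8.65-fold and 7.77-fold higher. In each of them all tips lay above all YL arrays. Alpha-expansin 10 and Os06g0696400 were listed by the study as enriched in RT over the other tissues, YL included, on these arrays. Their direction between tips and YL was thus in part set by the naming. Between the tips, alpha-expansin 10 had the opposite order to that list. Its log2 signals were 8.96 to 9.54 on the arrays labelled ST and 7.91 to 8.56 on those labelled RT. For Os06g0696400 the ST and RT arrays overlapped.

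The proline-rich gene Os10g05990 ranged from 10.4 to 892 (median 240) over the tips and from 5.00 to 8.08 in YL. Its log2 signals were 8.68 to 9.80 on the arrays labelled ST and 3.38 to 6.16 on those labelled RT, so the pooled median describes neither. Its difference of 4.21 ± 1.85 did not pass (limma adjusted p = 0.0694), and the internode spread is part of that SE. The GDSL lipase Os06g06250 did not pass either, with 42.0 to 200.3 in the tips and 27.4 to 78.5 in YL (adjusted p = 0.488). Neither did the aquaporin PIP2.2 (adjusted p = 0.809). The GDSL lipase Os01g46080, with 112, 59.4 and 84.4 in set A against 214, 406 and 386 in set B, went the other way, with 14.9 to 74.3 in the tips and 685 to 867 in YL (difference -4.39 ± 0.63, adjusted p = 6.55e-05).

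The 10 largest named genes on the set A side were all higher in YL than in the tips, but most annotation came from genes the study had picked as higher in YL on these arrays, so this direction was largely set by the naming. The AP2 domain protein Os09g11480 had 27.8 to 701 (median 347) over the tips and 1159 to 2262 in YL, a difference of -2.95 ± 0.91 (limma adjusted p = 0.0140). The C3HC4 zinc finger protein Os04g51400 had 13.1 to 24.1 against 1803 to 2629, which puts YL at least 42.5-fold higher (difference -6.91 ± 0.91, adjusted p = 3.52e-05). AGPS2, by contrast, had 1061 to 1487 in the tips and 640 to 1433 in YL (difference 0.34 ± 0.34, adjusted p = 0.418).

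Set A also held the internode arrays most like leaf. SI 1 correlated with the YL arrays at 0.803 to 0.821 and RI 1 at 0.634 to 0.655, whereas RI 2, SI 2 and SI 3 had 0.529 to 0.610 and RI 3 had 0.580 to 0.623. RI 2, SI 2 and SI 3 correlated with the tips at 0.663 to 0.814, RI 3 at 0.666 to 0.760, RI 1 at 0.625 to 0.684 and SI 1 at 0.610 to 0.657. The ranges of RI 3 overlapped those of set B in both comparisons.

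Photosynthesis genes differed mainly by tissue and also moved with the sets. The 75 tested photosynthesis probe sets had a mean log2 signal of 7.05 in RI 1, 6.87 in RI 3 and 6.10 in RI 2, of 9.93 in SI 1, 9.23 in SI 2 and 9.45 in SI 3, and of 10.8 ± 0.19 (SD, n = 3) in YL. The tip arrays labelled RT had 7.21 to 7.37 and those labelled ST had 5.33 to 5.60. The study reported many photosynthesis genes as lower in RT than in ST, the opposite order. Among genes named above, the study placed alpha-expansin 10, Os04g42860 and Os01g55240 higher in RT than in ST. Here each of them was higher on every array labelled ST than on every array labelled RT. Whether the RT and ST labels are exchanged could not be settled. All SI arrays were above all RI arrays, as their labels of aerial and underground stem would have it. In each tissue the set A arrays were the higher ones, with median differences of 0.91 inside RI and 0.50 inside SI, whereas the median over the sets was -0.19, as set B holds 2 SI arrays and set A holds 1. Of the 75, 4 were counted as higher in set A and none as higher in set B, against 10.4% and 4.05% of all annotated probe sets. These 4 were Os07g47640 above, photosystem I subunit II (Os08g44680, 185, 96.6 and 203 in set A against 44.3, 47.9 and 54.9 in set B), an oxygen-evolving complex protein (Os01g43070) and cytochrome b6-f subunit 4. The chlorophyll a-b binding protein Os03g39610 had 39.4 in RI 1, 39.4 in RI 3 and 68.6 in RI 2, against 4325, 3848 and 4872 in SI 1, SI 2 and SI 3. The study chose 51 of these probe sets as YL genes on the same arrays, so their direction is not independent evidence. The part of green tissue in the set difference was not tested.

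The comparison of RI with SI by labels crosses the sets, and because set A holds 2 RI arrays and set B holds 2 SI arrays it shares part of the set difference. limma called 67 probe sets higher in RI (0.286% of those tested) and 328 higher in SI (1.40%). None of the 3704 probe sets that differed between the sets was called. At an unadjusted p under 0.05 there were 73 among the 1533 and 99 among the 2171, that is 4.76% and 4.56% against 10.5% of all tested, where the set difference enters the spread between replicates. A fit of only the 6 internode arrays called 17 and 99. Without SI 1 the count was 752, and without RI 3 it was 230.

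The genes named next were chosen for their RI to SI difference. The BURP domain protein Os10g26940, of a plant family of secreted proteins, had 2300, 3107 and 3866 in RI 1, RI 3 and RI 2 and 31.2, 29.2 and 47.9 in SI 1, SI 2 and SI 3, a difference of 6.42 ± 0.94 (limma adjusted p = 0.00264), which was 6.42 inside set A and 6.69 inside set B. The wound induced protein Os04g54300 had 2322, 2274 and 2292 in RI against 196, 111 and 187 in SI (difference 3.85 ± 0.45, adjusted p = 0.000482). Phosphoribulokinase (Os02g47020), of the carbon fixation cycle, had 11.9, 15.2 and 7.91 in RI, below the cutoff, against 1539, 969 and 1050.0 in SI, so that SI was at least 23.4-fold higher (adjusted p = 2.22e-08), and its SI 1 signal was the highest.

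Measures of RNA quality and controls were read beside the sets. Actin at its 3 prime probe set had 1696, 2790 and 1721 in set A (RI 1, RI 3, SI 1) against 3894, 3657 and 4354 in set B, with 3475 to 3923 in the tips and 1238 to 1577 in YL. The 5.8S rRNA control had 162, 66.9 and 72.6 in set A against 21.1, 20.8 and 23.7 in set B. Both controls thus moved with the sets, and RI 3 lay between RI 1 and RI 2 in each. GAPDH at its 3 prime probe set had 4814, 5064 and 5355 against 5233, 4267 and 4880 and overlapped. The part of rRNA carry-over or labelling in the set difference was not tested.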

How the data were processed

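Signals of 15 Affymetrix rice arrays (5 tissues, 3 arrays each) were used as deposited. Per the study's methods, the authors made these linear intensity values from GCOS image files by global scaling in dChip; the probe set summary was not given in the sources used here. Of 57381 probe sets, 187 controls were left out. Symbols came from GEO's platform annotation (22436 with 1, 95 with several, 34663 with none) and annotations from the study's tables (2663 probe sets, and 584 more through a shared symbol). Because the tips' labels could not be settled, RT and ST were pooled. limma 3.58.1 (R 4.3.3) fitted 5 tissue means to log2 signals of all 15 arrays, in place of the methods' SAM, with Benjamini-Hochberg adjustment over 23440 probe sets, and was tested on simulated data. Single genes were named by rule: the 10 largest set differences each way with an informative annotation, up to 4 members of each gene list, OSH1, LHY and the granule-bound starch synthase by name, and the largest RI to SI differences; genes of annotation families and other counted list members were added after their values were seen. The sets, members and lists were chosen with earlier results of these data known, and list patterns were corrected after the values were seen (a false match removed, a spelling variant and gene symbols added). Across the 5 tissues replicate numbers gave no common pairing: of 30 same-number pairs, 7 had residual correlations over 0.1 and 10 under -0.1. Between RI and SI, which the sets cross, these were 0.61, 0.43 and 0.08 for numbers 1, 2 and 3. Both internode arrays of number 1 are in set A and both of number 2 in set B, so replicate number goes in part with the sets. The number of arrays limits the precision. No genome was given, so positions and sequences were not used here. Alternatives covered scaling, cutoff, filter, floor, the replicate block and leaving out each array.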

Additional observations from a re-analysis of the deposited data

Results flagged for a closer look

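For 4 gene lists the set difference ran in opposite directions inside RI and inside SI on every array, with no test of that difference. The auxin list (7 probe sets, mean log2 signal) was higher in RI 1 and RI 3 than in RI 2 by 0.24, and lower in SI 1 than in SI 2 and SI 3 (difference -0.18), which sets the tissues 0.42 apart. The list of starch and sucrose breakdown (5 probe sets) was lower in RI 1 and RI 3 (difference -0.04) and higher in SI 1 by 0.41, which sets them apart by -0.45. Lists of 2 probe sets each behaved likewise. The senescence and chlorophyll breakdown list was lower in RI 1 and RI 3 (difference -1.01) and higher in SI 1 by 0.36, which sets the tissues apart by -1.37. The list named root markers was lower in RI 1 and RI 3 (difference -0.93) and higher in SI 1 by 1.12, which sets them apart by -2.05. No root was sampled, and this list had a mean log2 signal of 11.3 in YL against 5.65 in the tips, so its name is not borne out here. All probe sets of the last 3 lists had their annotation from the study's YL table and were called higher in YL than in the tips.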

How the results depend on the processing

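Of the alternatives tried on the 3 comparisons, 61 values stayed within 1.5 times the reported count and 4 did not. The set difference counted 3704 probe sets, 1074 of them over 4-fold, and 3448 to 5367 with each internode array left out, the highest without RI 3. Tips minus YL gave 9246 to 10560 with each array left out, against 10353. RI minus SI gave 395 calls, 116 in a fit of only the 6 internode arrays, which has fewer samples, and 230 to 752 with each array left out. RI minus SI reached 752 without SI 1 and 230 without RI 3, and the cause was not tested. With the replicate block it gave 333 calls and tips minus YL gave 10387. Restricting tips minus YL to its own 9 arrays, chosen after seeing the data, gave 10604. All 384 values of single genes under quantile normalization and median centring moved by less than 1 SD and kept their direction. Of 34 list counts under these 2 scalings 6 moved, each by 1 probe set: ribosomal proteins 0 to 1 and starch synthesis 1 to 2 under both, and aquaporins and heat shock proteins 1 to 0 under quantile normalization. Signals below the cutoff limit the fold changes of silent genes to lower bounds.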
